A study of Caenorhabditis elegans with 55 samples.

Results

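tRNA fragments were taken here as the sense reads assigned to features of class tRNA in the small RNA tables of 10 *Caenorhabditis elegans* strains. The tables list 604 such tRNA rows of 70242 features in all. Of these rows 579 are in every table and 25 are missing from at least 1, with 585 to 600 in a single table. In every strain the Argonaute immunoprecipitate (IP) held a smaller share of tRNA reads than the input, and no IP library reached the level of an input library of its strain. Fewer rows went the other way. The row that did so in the most strains was higher in the 4 IPs of strains whose table or genotype names CSR-1a. In 1 of these strains it had no input reads and was tested only because of its IP reads.

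tRNAs carry amino acids to the ribosome, and cells cut them into shorter fragments that are read by small RNA sequencing together with other breakdown products of abundant structural RNAs. Argonautes are the proteins that hold small RNAs as guides. In *C. elegans*, CSR-1 and the WAGO proteins are known for binding 22G-RNAs made by RNA-dependent RNA polymerases that pair with transcripts, and ALG-3 and ALG-4 for binding 26G-RNAs in the male germ line.

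Each strain had 2 IP libraries and 2 input libraries. The animals were whole L4 larvae kept at 20 C. CSR-1 was precipitated from JMC101, *csr-1(tor67[gfp::3xflag::csr-1])*. CSR-1a came from JMC151, whose allele *tor160* puts GFP and 3xFLAG at exon 1 of *csr-1*. CSR-1b came from JMC164, whose allele adds *mg660[G120\*]* to the *tor67* tag and exon 2. JMC161 expresses *csr-1a* exon 1 with GFP from the transgene *mgTi11*, driven by *rpl-28*, in *csr-1(tm892)* animals that also carry *unc-119(ed3)*. Its titles and its table say CSR-1, and CSR-1a is taken here from the genotype. GR3035 carries *mgIs75[rpn-2::gfp]* and *mgTi14[pbs-5::mcherry]*, and GR3039 carries *csr-1(mg657[G91R])*. Both were precipitated for CSR-1a. The remaining strains were JMC205, *alg-3(tor141[gfp::3xflag::alg-3])*, JMC207, *alg-4(tor143[gfp::3xflag::alg-4])*, JMC223, *wago-4(tor117[gfp::3xflag::wago-4])*, and JMC248, *wago-10(tor162[3xflag::wago-10])*. In GR3035, GR3039 and JMC248 the labels give GFP beads for the IP although those genotypes put no GFP on an Argonaute, and the protocol names an antibody against CSR-1a as well. No untagged or mock IP was analysed here. Nothing in the labels says whether the 2 libraries of a group came from separate cultures, so p-values measure the spread between these samples, which may be technical.

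Depth, estimated from the value of a single read, ranged over the 40 libraries between 325376 and 30284676 reads, so that 1 read stood for 0.0330 to 3.07 reads per 1000000 (RPM). The shallowest library was the second WAGO-4 input. The IPs held 572 to 78380 estimated tRNA reads and the inputs 4133 to 907380. In the thinnest IP, the second of WAGO-4, the tRNA share of 0.0244% had an exact Clopper-Pearson 95% interval of 0.0224% to 0.0265%. Such intervals cover counting error only, since amplified reads without molecular identifiers are not independent molecules.

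Many tRNA rows could not be told apart by their reads. The 604 rows gave 228 distinct patterns of values over the 40 libraries. Rows with identical values in at least 3 libraries, each of at least 20 estimated reads, were joined into read-sharing groups, a step chosen after the data were seen. This gave 26 groups holding 208 rows and left 396 rows in no group. A total of 2 rows have a symbol in the name table, *Y95D11A.4* and *C16H3.7*, and the reference annotates both as ncRNA. Amino acid and anticodon are therefore not given for any row, and groups are called by their number of rows.

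The tRNA share was lower in the IP in all 10 strains. In the CSR-1 IPs of JMC101, tRNA made up 0.0955% and 0.0661% of reads, against 1.57% and 1.77% in the inputs, a 20.6-fold difference of means. The CSR-1a IPs of JMC151 held 0.474% and 0.611%, against 1.54% and 2.21% in the inputs, a 3.45-fold difference. For CSR-1b in JMC164 the IPs held 0.160% and 0.117% and the inputs 2.85% and 1.52%, a 15.7-fold difference. These 3 lines, JMC101, JMC151 and JMC164, thus had IPs below both of their inputs, with JMC151 nearest to them. The transgenic CSR-1a of JMC161 gave 0.103% and 0.0983% in the IPs and 1.22% and 0.815% in the inputs, a 10.1-fold difference. GR3039 IPs held 0.362% and 0.489%, against 0.816% and 0.908% in its inputs, a 2.02-fold difference and the smallest of the 10. GR3035 IPs held 0.292% and 0.406%, against 0.762% and 1.71% in its inputs, a 3.54-fold difference. The inputs of GR3035 differed more from each other than those of GR3039 did.

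**Figure D1:**
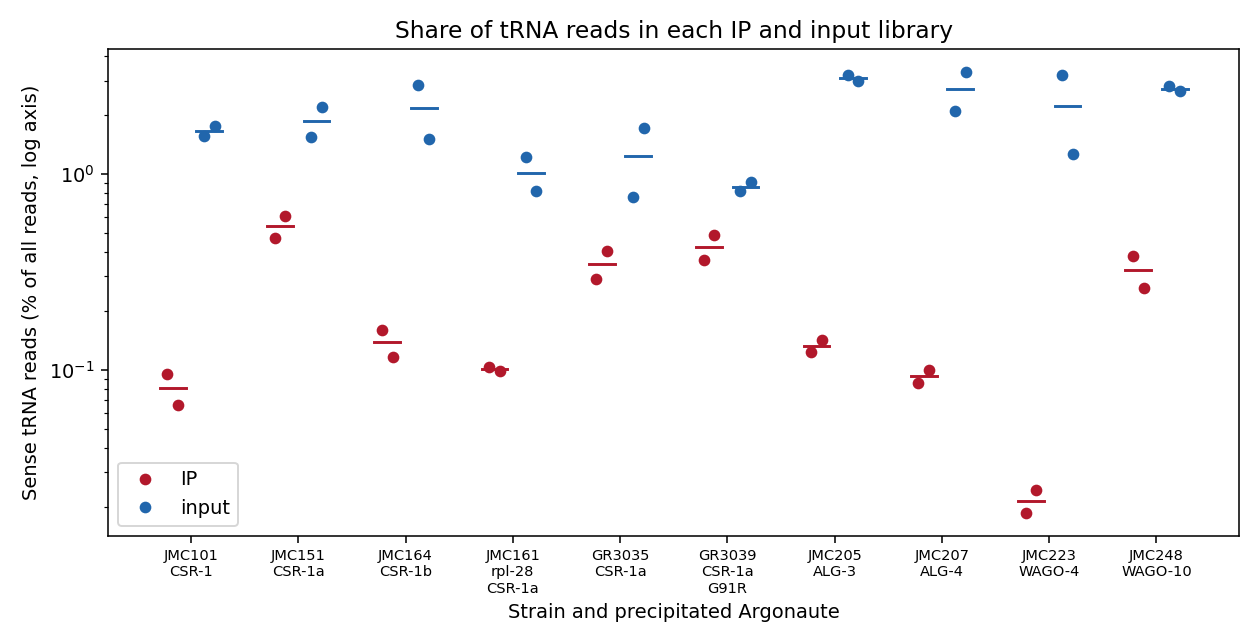
Percent of all reads assigned to sense tRNA rows (log axis) in each IP and input library of 10 strains. Points are libraries and short bars are means of 2. Every IP library lies below both inputs of its strain, with WAGO-4 lowest at 0.0185% and 0.0244%.

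Among the Argonautes of the male germ line, ALG-3 IPs held 0.123% and 0.142% tRNA reads, against 3.21% and 3.00% in the inputs, a 23.4-fold difference. ALG-4 IPs held 0.0858% and 0.0996%, against 2.11% and 3.33% in the inputs, a 29.3-fold difference. WAGO-4 had the largest difference of the 10 strains, 104-fold, with 0.0185% and 0.0244% in the IPs and 3.19% and 1.27% in the inputs. WAGO-10 IPs held 0.383% and 0.262%, against 2.81% and 2.64% in the inputs, an 8.46-fold difference. Over the 10 strains the log2 ratio of IP to input averaged -3.55 (SD 1.71, n = 10) and lay below 0 in 10 of 10, with p = 0.00195 in an exact two-sided sign-flip permutation test, the smallest p that 10 strains allow. Within a single strain 2 libraries against 2 cannot pass 0.05. A share is relative, so a fall of tRNA reads and a gain of other small RNAs in an IP cannot be told apart, and in whole worms neither can fewer cells of a type and less RNA per cell.

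The tRNA class fell further than the other structural RNA classes and than miRNAs. Of tRNA, rRNA, snRNA, snoRNA and miRNA reads, tRNA had the lowest log2 ratio of IP to input in 10 of 10 strains. The tRNA ratio was on average 2.33 below that of rRNA on the log2 scale (mean difference -2.33, SD 1.10, n = 10). It differed by -1.82 (SD 1.26) from snRNA, by -2.26 (SD 1.86) from miRNA and by -3.47 (SD 2.33) from snoRNA. Each of these 4 comparisons had p = 0.00195 in an exact two-sided sign-flip permutation test over 10 strains, and adjusted p = 0.00195 by Benjamini-Hochberg over the 4. They were chosen after the shares were seen. The gap was narrow in some strains, with a smallest value of 0.401 against miRNA and 0.426 against snRNA on the log2 scale.

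miRNA and rRNA reads kept or gained share in some IPs where tRNA reads lost it. ALG-3 IPs held on average 55.0% miRNA reads, against 30.8% in the inputs, a log2 ratio of 0.84, while the tRNA ratio there was -4.55. Ribosomal RNA, the other abundant source of breakdown products, had log2 ratios of -0.25 in ALG-3, -0.17 in WAGO-10 and -0.02 in GR3035, against tRNA ratios of -4.55, -3.08 and -1.83 in the same strains. snoRNAs, guides for modifying rRNA, had log2 ratios of 3.79 in GR3035, 4.34 in GR3039 and 4.95 in WAGO-10, the strains with no GFP on an Argonaute.

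**Figure D2:**
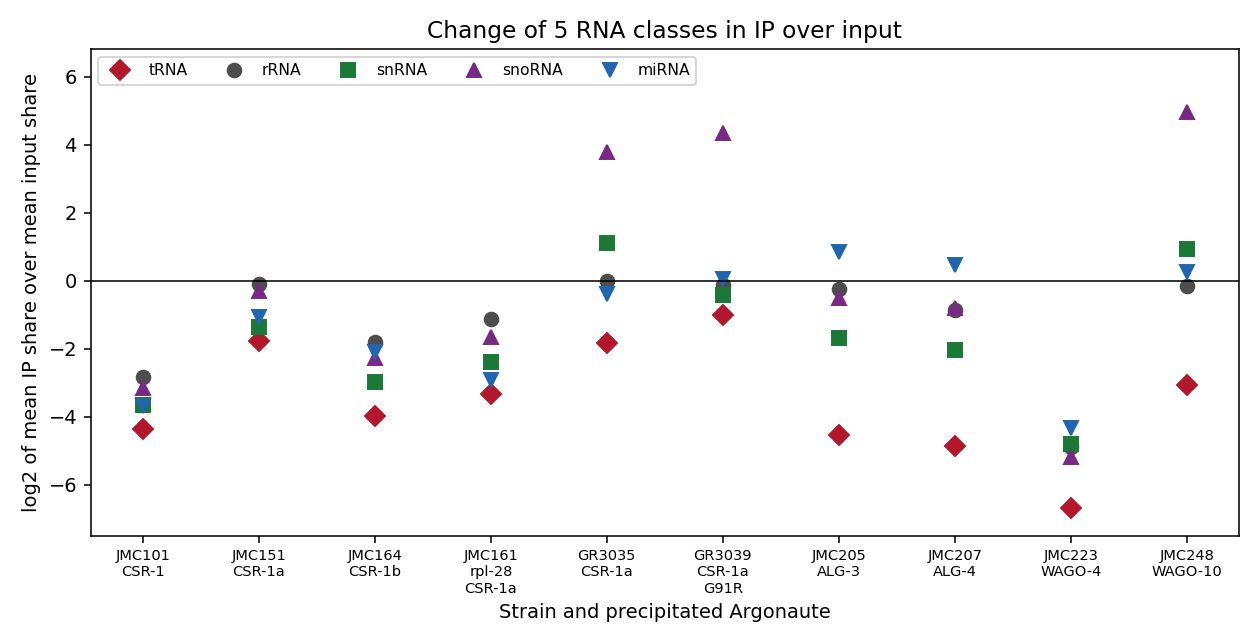
log2 of the mean IP share over the mean input share for tRNA, rRNA, snRNA, snoRNA and miRNA reads in 10 strains. The tRNA point is the lowest of the 5 in every strain, also where the snoRNA point lies as high as 4.95.

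Strains were also split by whether the genotype label puts GFP on the Argonaute. This split was chosen because earlier results of these data showed snoRNA features enriched in the IPs of the 3 strains without GFP. Its p-values are therefore not those of an independent test. The log2 ratio of the tRNA share averaged -1.97 (SD 1.04, n = 3) without GFP and -4.23 (SD 1.498, n = 7) with it. The difference of 2.25 had p = 0.05 in an exact two-sided permutation test of the strain labels and so did not fall under 0.05. The smallest p this split allows is 0.0167. With each strain left out in turn, p was 0.0238 without JMC151 (difference 2.66, exact permutation test), and between 0.0714 and 0.167 without any other. The Argonaute, the antibody and the allele vary along with the split and cannot be told apart from it.

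Row by row, 883 of 1759 tests of a tRNA row in a strain called it lower in the IP. Of the 604 rows, 374 reached 10 estimated reads in at least 2 of the 4 libraries of at least 1 strain, and 230 never did. Each strain was fitted over its whole table with limma on log2(RPM + 1), and a row was called where the Benjamini-Hochberg adjusted p was under 0.05 and the log2 fold change was 1 or more in size. In CSR-1 IPs 104 of 161 tested rows were lower, or 64.6%, against 32.2% of all features tested. In the CSR-1a IPs of JMC151 68 of 95 were lower, or 71.6%, against 20.2% of all features. For CSR-1b these figures were 102 of 187 rows, 54.5% and 27.3%. For JMC161 they were 104 of 152 rows, 68.4% and 26.3%. GR3039 had 69 of 205 rows lower, 33.7% against 9.72%, and GR3035 had 66 of 265, 24.9% against 13.3%. ALG-3 had 121 of 244 rows lower, 49.6% against 28.8%, and ALG-4 had 130 of 241, 53.9% against 32% of all features. WAGO-4 had 51 of 53 rows lower, 96.2% against 11.2%, and WAGO-10 had 68 of 156, 43.6% against 14.8%. In each of these 10 fits the share of tRNA rows called lower was above that of all features. The exceptions among the alternatives were both in JMC151. Without its first IP 6 of 87 rows were lower, 6.9% against 13.6% of all features, and with no filter no feature of any class was called.

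The medians of tRNA rows lay below those of all features in every strain. The median log2 fold change of tested tRNA rows was -5.94 in WAGO-4, where the median of all features was 2.26, and -2.77 in CSR-1, where that of all features was 0.15. It was -0.53 in GR3035, against 0.08 for all features there, and -0.89 in GR3039, against 0.03. Counted without repeats from shared reads, the rows lower in the IP fell into 15 groups or single rows in WAGO-4 and 76 in ALG-3, the fewest and the most. Over all strains 96 of the 1759 tests called a row higher. Of the 50 rows tested in every strain, 4 were lower in all 10, 30 were lower in at least 8, and 1 was higher in at least 1. These counts take each row singly, so rows of the same read-sharing group are counted repeatedly. No share over all features was computed for them. WBGene00004708 and WBGene00023109, both of a 22-row group described below, were lower in 9 and 10 strains.

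**Figure D3:**
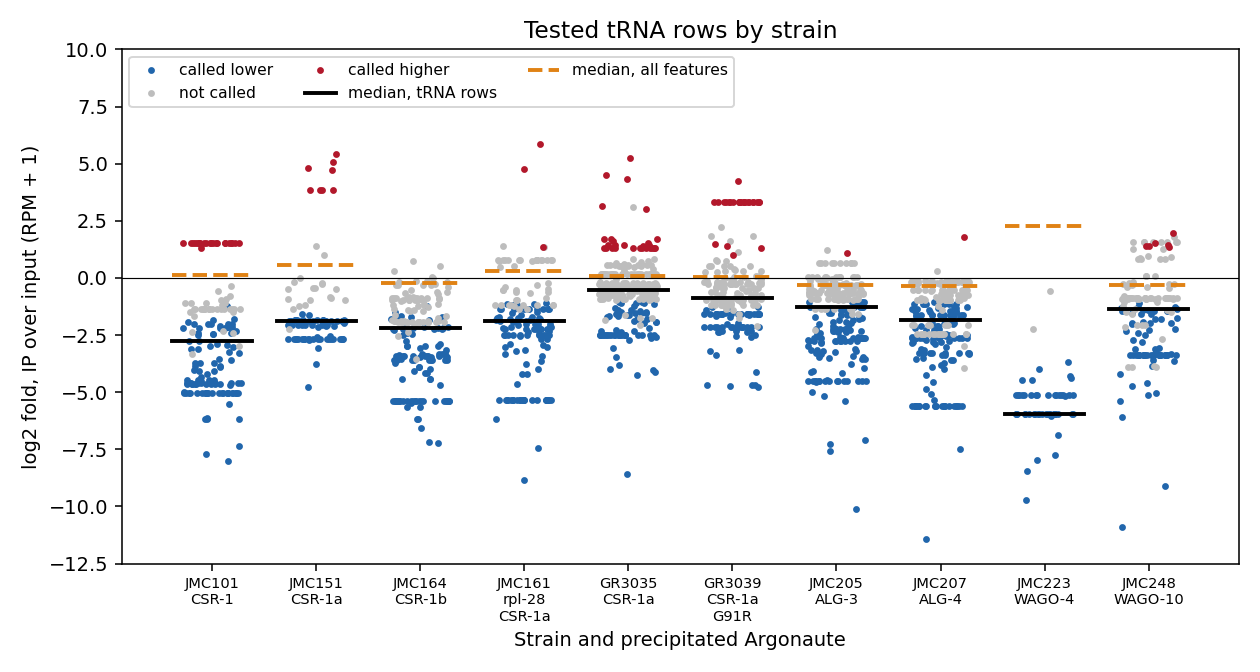
log2 fold change, IP over input on the log2(RPM + 1) scale, of each tested tRNA row in 10 strains, coloured by call. Solid lines are medians of tRNA rows and dashed lines are medians of all features tested. The tRNA median lies below that of all features in every strain, and rows that share reads form horizontal strings of points.

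These counts rest on few libraries. Leaving out 1 library moved the lower count by over 1.5 times in 5 strains: 69 of 125 without the first input for CSR-1, 6 of 87, 30 of 84 and 33 of 73 without the first IP, the second IP or the second input for CSR-1a of JMC151, 59 of 77 and 50 of 87 without the first or second input for JMC161, 26 of 26 without either input for WAGO-4, and 43 of 90 without the first input for WAGO-10. Fewer rows passed the filter in each of these fits. The tRNA share itself kept its direction when any library was left out, in all 10 strains. The fold moved by over 1.5 times in WAGO-4 without the first input, to a log2 ratio of -5.89, and in GR3035 without the second input, to a log2 ratio of -1.13.

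The 2 largest read-sharing groups were lower in the IP in every strain. A group of 22 rows, which includes WBGene00004708, held on average 27.1% of the tRNA reads in the IPs and 46.4% in the inputs. Its summed level in CSR-1 IPs was 69.1 and 25.8 RPM, against 4304 and 1047 RPM in the inputs. In WAGO-4 it was 73.4 and 115 RPM in the IPs and 7544 and 6545 RPM in the inputs, the largest difference at 74.6-fold. In GR3039 it was 953 and 1312 RPM in the IPs and 3325 and 3466 RPM in the inputs, the smallest at 3.00-fold. Both IP libraries lay below both inputs in 10 of 10 strains, and the log2 ratio ran between -6.22 and -1.58.

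A group of 26 rows, which includes WBGene00014352, held on average 7.09% of the tRNA reads in the IPs and 17.7% in the inputs. ALG-3 IPs held 177 and 230 RPM of it, against 11303 and 9616 RPM in the inputs, a 51.4-fold difference. WAGO-4 IPs held 21.5 and 7.67 RPM, against 16663 and 1564 RPM in the inputs. The WAGO-4 inputs thus differed widely from each other, and both lay above both IPs. Over the 10 strains its log2 ratio ran between -9.29 and -2.43, again with no overlap in 10 of 10.

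Counted over groups and single rows with the reads of each group summed, both IP libraries lay below both inputs for 61 of 75 such units in CSR-1, where 40.3% of all features did. This held for 22 of 49 units in JMC151 (25.1% of all features), 76 of 109 in CSR-1b (43.3%) and 73 of 85 in JMC161 (33.3%). It held for 50 of 114 in GR3039 (31.4%) and 96 of 138 in GR3035 (34.2%). ALG-3 had 115 of 126 units below (52.8%), ALG-4 98 of 108 (51.1%), WAGO-4 21 of 22 (24.3%) and WAGO-10 63 of 92 (46.6%). Units with both IP libraries above both inputs were fewer. There was 1 in CSR-1 (46.1% of all features), 6 in JMC151 (48.4%), 0 in CSR-1b (35.1%) and 4 in JMC161 (49.4%). There were 11 in GR3039 (33.9%), 14 in GR3035 (42.6%), 1 in ALG-3 (34.3%), 1 in ALG-4 (37%), 0 in WAGO-4 (63%) and 7 in WAGO-10 (23.2%). The share of units above was below that of all features in all 10 strains. The percents of all features count single rows without summing, tRNA rows included. They are therefore not a like measure to the summed units.

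**Figure D4:**
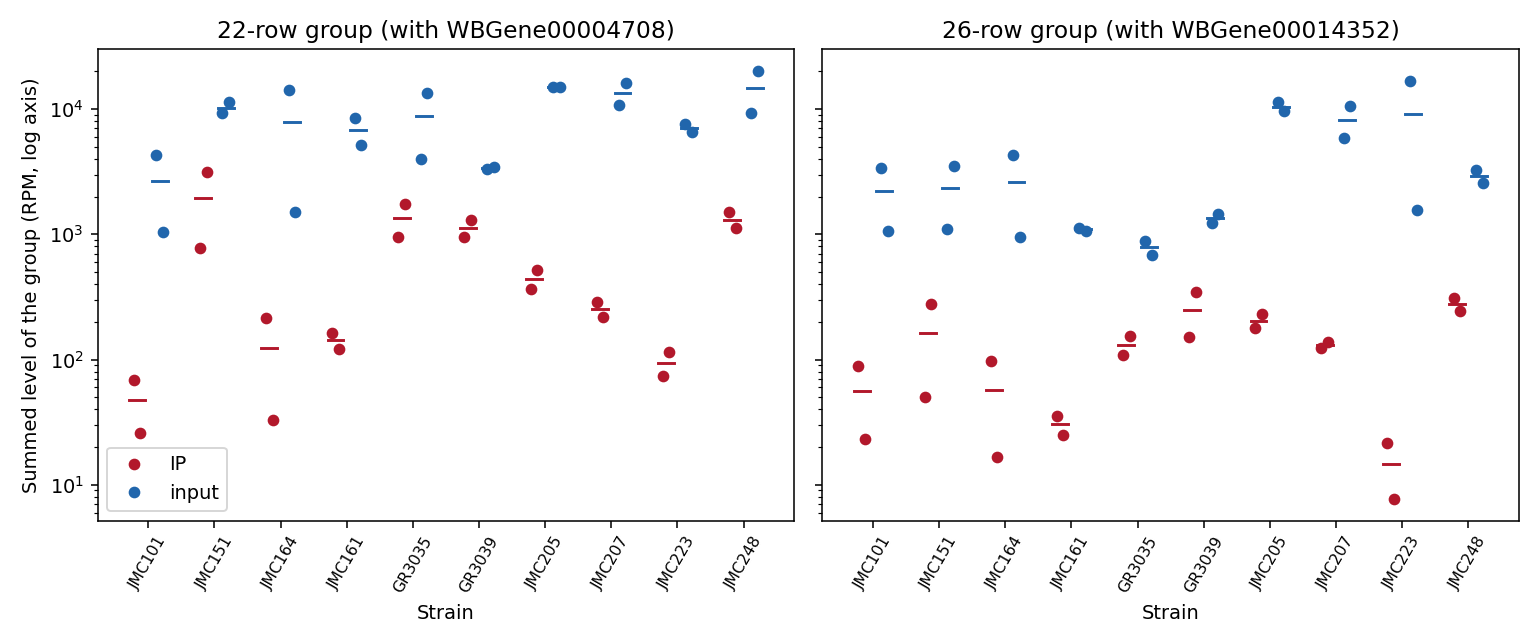
Summed level (RPM, log axis) of the 22-row group and the 26-row group in each IP and input library. Points are libraries and bars are means of 2. All IP points lie below the input points of the same strain, and the WAGO-4 inputs of the 26-row group lie far apart at 16663 and 1564 RPM.

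Which row of a group carried the reads changed between libraries. In the first ALG-3 input the 22-row group had 682 RPM on WBGene00004708 and the same on each other row, 14994 RPM in sum. In the second ALG-3 input the whole 15003 RPM stood on a single row, WBGene00023109, and the other rows were at 0. The sums of the group thus differed by little where the rows differed by all of their reads. WBGene00004708 was accordingly not called in ALG-3 (log2 fold change -0.33, SE 2.33, limma adjusted p = 0.906), although its group was 33.9-fold lower in the IP. In the 26-row group, WBGene00023092 had 15622 RPM in the first WAGO-4 input and 60.2 RPM in the second. Among rows with at least 100 estimated reads in 1 replicate, 20 of 408 in the IPs and 77 of 1060 in the inputs stood at 0 in the other replicate, 6.61% in all. Calls on single rows of a group are given here with the group's sum for that reason.

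tRNA rows that went against the class were fewer. Of 604 rows, 62 were called higher in the IP of at least 1 strain. Of these, 32 were called in 1 strain, 27 in 2, 2 in 3 and 1 in 4. In all, 19 rows were higher in 1 strain and lower in another. These counts take rows that share reads singly, and no share over all features was computed for them. Many of the 27 were rows of the 26-row group, called in both CSR-1 and GR3039. CSR-1 had 23 higher rows, or 14.3% of those tested, against 36.1% of all features. JMC151 had 8, or 8.42% against 32.5%, and JMC161 3, or 1.97% against 34.8%. GR3039 had 26, or 12.7% against 12.1% of all features, and GR3035 28, or 10.6% against 20.9%. In CSR-1 and GR3039 many of the higher rows passed the read filter only through the IPs, as given below. ALG-3 and ALG-4 had 1 each, against 22% and 26.1% of all features, and WAGO-10 had 6, or 3.85% against 9.73%. CSR-1b and WAGO-4 had 0 by limma, against 27.9% and 54.8% of all features, and 0 also at an unadjusted p under 0.05. In these fits a higher call was less common among tRNA rows than among all features in every strain but GR3039. In GR3039 this turned without the first IP (5.0% against 11.4% of all features) and without the second (4.95% against 13.7%). In WAGO-10 a higher call was the more common with the replicate block (10.9% against 10.1%) and with no filter (5.56% against 2.53%).

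Many of these higher calls were on rows whose group sum was lower in the IP. Of the 23 higher rows of CSR-1, 22 belonged to the 26-row group, whose sum was lower in the IP. In CSR-1 IPs 21 rows of that group had the same 3.39 and 0.889 RPM, among them WBGene00014352, which was at 0 in both inputs. Rows at 0 in both inputs passed the read filter only through the IPs, where they were high. The group was defined from identical values, and when 5 libraries were needed to link rows, WBGene00014352 stood alone. In GR3039 21 of the 26 higher rows were of the same group, and its sum was 5.39-fold lower in the IP. WBGene00014352 passed the filter only through the IPs there as well. Such calls are not independent support. The higher calls in JMC151, JMC161, ALG-3, ALG-4 and WAGO-10, and 27 of 28 in GR3035, were on rows whose group sum was higher as well. The higher counts depended on single libraries. Without 1 IP they were 0 in CSR-1 for either IP, 2 or 1 in JMC151, 1 in JMC161 for the first, 9 in GR3039 for either, 0 or 2 in ALG-3, 2 in CSR-1b for the second and 16 in WAGO-10 for the second. Without 1 input they were 5 or 17 in JMC161, 44 in GR3035 for the first, 1 in CSR-1b for the first, 32 or 0 in ALG-3, 2 in ALG-4 for the second and 3 or 11 in WAGO-10.

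The row called higher in the most strains was WBGene00022896, which was joined to no read-sharing group. Its reads were still divided with other features in some libraries. The first JMC151 input held less of it than the 0.768 RPM that 1 read stood for there. The level of WBGene00022896 was 90.5 and 119 RPM in JMC151 IPs, against 0.0903 and 13.6 RPM in the inputs (log2 fold change 4.71, SE 0.64, limma adjusted p = 1.07e-08). In JMC161 it was 33.2 and 21.3 RPM in the IPs and 0 in both inputs. That was at least 73.8-fold higher against a floor of 3 reads per library (limma adjusted p = 4.91e-06). In JMC161 the row passed the read filter only through the IPs, where it was high, so this call is not independent support. GR3039 IPs had 86.9 and 62.2 RPM, against 12.0 and 0.215 RPM in the inputs (4.23, SE 0.72, limma adjusted p = 0.000765). GR3035 IPs had 82.7 and 96.8 RPM, against 10.3 and 0.397 RPM in the inputs (4.51, SE 0.83, limma adjusted p = 0.00358). The tables of JMC151, GR3039 and GR3035 and the genotype of JMC161 name CSR-1a, and in each of these IPs both libraries stood above both inputs. The inputs of a strain differed widely, and with each library left out the log2 fold change ran between 2.84 and 6.59 in JMC151, 2.52 and 5.94 in GR3039, and 3.00 and 6.02 in GR3035, both ends being set by leaving out 1 input. It was still called in each case.

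The same row was lower in other IPs. ALG-3 IPs had 0.0294 and 0.0961 RPM of WBGene00022896, against 39.2 and 27.9 RPM in the inputs (limma log2 fold change -5.00, adjusted p = 2e-08). Those IP values are 0.4 and 0.9 of an estimated read, so its reads there were divided with other features. Which features shared them was not determined. In WAGO-10 it had 0.107 and 0.507 RPM in the IPs, against 17.4 and 30.6 RPM in the inputs (limma log2 fold change -4.22, adjusted p = 6.88e-05). ALG-4 IPs had 9.70 and 10.95 RPM, against 66.6 and 65.5 RPM in the inputs. It was not called in CSR-1, with 7.75 and 2.09 RPM in the IPs and 28.5 and 0.499 RPM in the inputs, nor in CSR-1b, and it was too low to test in WAGO-4. The difference between CSR-1a and the other Argonautes was not tested, since the row was singled out by these calls.

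A group of 4 rows, which includes WBGene00014325, had a similar pattern of levels. Its sum was 405 and 121 RPM in JMC151 IPs, against 13.5 and 10.6 RPM in the inputs. In JMC161 it was 186 and 399 RPM in the IPs and 18.0 and 11.7 RPM in the inputs, and it then made up 29.3% of the tRNA reads in the IPs and 0.146% in the inputs. GR3035 IPs held 386 and 661 RPM, against 20.7 and 25.8 RPM in the inputs. In GR3039 the IPs were split, with 319 RPM in the first and 5.47 RPM in the second, against 26.2 and 27.1 RPM in the inputs, and the row WBGene00014325 was not called there (limma adjusted p = 0.361). In CSR-1, ALG-3 and ALG-4 the sum was below 20 RPM in every library, with 6.06 and 1.20 RPM in CSR-1 IPs against 19.0 and 6.51 RPM in its inputs. The log2 ratio of the summed level was below 0 in 6 strains. As a part of the tRNA reads, however, the group was higher in the IP in 10 of 10 strains, and WBGene00022896 in 8. By that measure neither was particular to the CSR-1a strains. Parts add up to a whole, so smaller parts of the 2 largest groups leave larger parts to other rows. A 3-row group with WBGene00023033 and a 12-row group with WBGene00014363 were also higher in 10 strains, and a 15-row group with WBGene00014320 in 5.

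**Figure D5:**
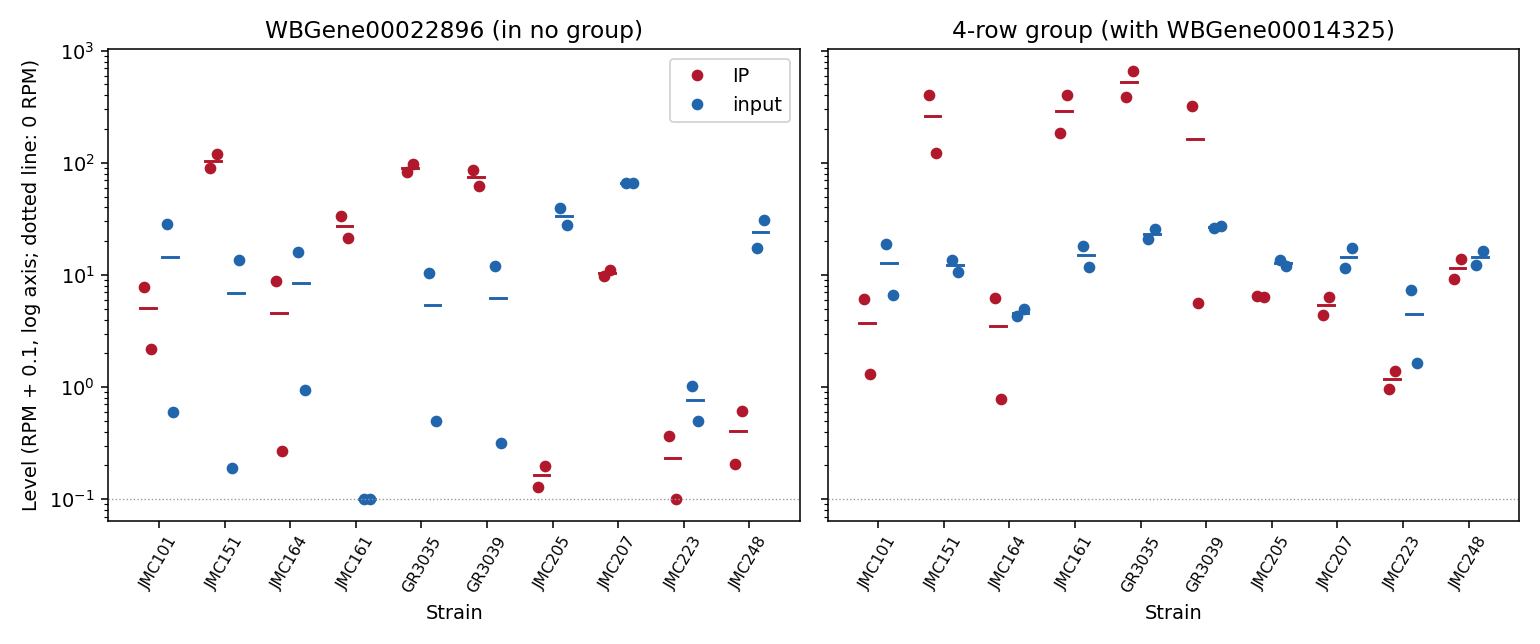
Level of WBGene00022896 and summed level of the 4-row group of WBGene00014325 in each IP and input library, drawn as RPM + 0.1 on a log axis, with means of 2 as bars. IPs of JMC151, JMC161, GR3035 and GR3039 stand above the inputs for WBGene00022896, and those of JMC205, JMC207 and JMC248 below. In the 4-row group 1 GR3039 IP, at 5.47 RPM, lies below its inputs.

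Other rows kept more of their reads in the IPs than the class did. WBGene00014458, in no group, made up on average 6.60% of the tRNA reads in the IPs and 1.32% in the inputs. Its part of the tRNA reads was higher in the IP in 10 of 10 strains, with the limit on parts given above. In level it was 508 and 461 RPM in GR3039 IPs, against 285 and 281 RPM in the inputs, a log2 fold change of 0.77, which did not reach the size needed for a call. In WAGO-4 it had 4.25 and 8.52 RPM in the IPs, against 128 and 169 RPM in the inputs, and was called lower (limma log2 fold change -4.39, adjusted p = 0.000288). tRNA reads were also spread over more features in the IPs. With the reads of each group summed, the median number of groups and single rows that held 90% of the tRNA reads was 28.5 in the IPs and 8.5 in the inputs, and both IPs lay above both inputs in 9 of 10 strains.

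ALG-3 and ALG-4, paralogs, differed in 4 tRNA rows. In a limma fit over both strains, 4 of 329 tested rows had a lower enrichment in ALG-3 than in ALG-4 at adjusted p under 0.05, against 0.0364% of all features, and 0 had a higher one, where 0% of all features did. At an unadjusted limma p under 0.05 there were 6 lower and 16 higher rows of the 329. No share over all features was computed for that count, so it is not read as a difference of tRNA rows. The largest difference was in WBGene00014362, at -3.39 on the log2 scale (SE 0.25, limma adjusted p = 0.00237). ALG-3 IPs had 9.84 and 11.7 RPM of it, against 37.2 and 31.6 RPM in ALG-3 inputs. ALG-4 IPs had 9.57 and 10.1 RPM, against 1.75 and 2.52 RPM in ALG-4 inputs. The IP levels of the paralogs were close and the inputs were far apart. Both counts depended on single libraries. Leaving out 1 library moved them for tRNA rows and for all features alike.

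GR3039, with the G91R allele of *csr-1*, was set against GR3035 in the same way. Of 306 tested rows, 23 had a higher enrichment in GR3039, against 0.287% of all features, and 2 a lower one, against 0.962%. Of the 23, 21 were rows of the 26-row group. That group's sum was 152 and 345 RPM in GR3039 IPs, against 1221 and 1460 RPM in GR3039 inputs, a log2 ratio of -2.43. In GR3035 it was 108 and 154 RPM in the IPs and 891 and 688 RPM in the inputs, a log2 ratio of -2.59. The sums thus changed by nearly the same factor in both strains, while the row WBGene00014352 had 5.84 and 13.3 RPM in GR3039 IPs and 0 in both GR3035 IPs. WBGene00014352 passed the read filter only through the GR3039 IPs, where it was high. Most of the 21 rows had the same log2 difference of 3.30, so their calls are not independent support. Both counts depended on single libraries. Leaving out 1 library moved them for tRNA rows and for all features alike.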

How the data were processed

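The deposited small RNA tables give RPM per feature, reads scaled by the authors to 1000000 per library with 0.01 added, as read from the values. Per the submitters' processing notes, cutadapt, STAR, FastQC and DESeq2 were used, with no role or version named; how reads of repeated tRNA genes were placed, the genome build and the annotation were not stated in the sources at hand. The offset was taken off. The members, lists and tests were chosen with earlier results of these data known.

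The RPM worth of a single read, found from the lowest values, gave each library's estimated depth. A feature was tested with at least 10 estimated reads in at least 2 libraries. limma 3.58.1 (R 4.3.3) with a mean-variance trend was fitted to log2(RPM + 1) over each whole table, and for ALG-3 against ALG-4 and GR3039 against GR3035 over both tables. Fold changes of low rows are understated on this scale. Shares were compared with exact permutation tests in Python 3.11.15 with scipy 1.17.1.

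Tables were matched to samples by strain and Argonaute, and columns by input or IP and number. The 12 mRNA libraries were not used, and 3 inputs of strain GR3043 are not analysed here. Same-numbered libraries are not said to be paired, so no block was used. Rows were to be named as the 10 highest in the inputs, the 3 highest and 3 lowest called in each IP, and those against the class; since the IDs have no gene names, a few of each are named. The amino acid lists planned could not be made, and no tRNA sequence was at hand.

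Alternatives were a pseudocount of 0.1, no filter, median-of-ratios scaling, totals without structural RNAs, a replicate block and leaving out each library.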

Additional observations from a re-analysis of the deposited data

Results flagged for a closer look

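Antisense reads of tRNA genes, which the comparisons of sense fragments did not use, stood higher in both IPs than in both inputs in 7 strains, opposite to the sense reads. The ratio of IP to input means was 4.93 in CSR-1, with 71.3 and 56.1 RPM in the IPs and 15.1 and 10.8 RPM in the inputs. It was 6.70 in CSR-1a of JMC151, 4.46 in CSR-1b, 5.16 in JMC161, 2.10 in GR3039, 4.28 in GR3035 and 4.24 in WAGO-4. The WAGO-4 value rests on 16 and 2 estimated reads in its inputs, and the JMC151 value, the largest, on 29 and 12. GR3039 had 112 and 38 estimated reads in its IPs. In ALG-3 antisense reads had 6.06 and 6.93 RPM in the IPs and 16.5 and 16.1 RPM in the inputs, in ALG-4 6.65 and 6.99 RPM in the IPs and 15.1 and 15.9 RPM in the inputs, and in WAGO-10 11.2 and 13.3 RPM in the IPs and 13.0 and 13.7 RPM in the inputs. The difference between these strains was not tested.

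Differences between strains in IP enrichment, tested by interaction in limma, were found for 23 higher and 2 lower tRNA rows in GR3039 against GR3035 and for 4 lower rows in ALG-3 against ALG-4. WBGene00014352 differed by 3.30 on the log2 scale in GR3039 against GR3035 and WBGene00023092 of the same group by 3.91, both with 0 RPM in the GR3035 IPs. WBGene00014352 passed the filter only through the GR3039 IPs, so its call is not independent support. Between ALG-3 and ALG-4, WBGene00014362 differed by -3.39 and WBGene00022896 by -2.44. WBGene00014274 differed by -3.21, with 0 RPM in both ALG-3 IPs against 7.83 and 7.44 RPM in the ALG-3 inputs, and it was near 0 in all ALG-4 libraries. WBGene00014274 passed the filter only through the ALG-3 inputs, so the same limit applies.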

How the results depend on the processing

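The fall of the tRNA share kept its sign in all 70 alternatives over 10 strains. None moved it by more than 1 SD. That SD came from the same libraries of each strain, so leaving 1 of them out could hardly exceed it. The mean over strains ran between -3.83 and -3.20 with each strain left out, and the 4 comparisons with other classes kept their side of the threshold. The difference between strains without and with GFP was 2.24 with the replicate block (exact permutation p = 0.0333), and 1.77 to 2.81 with each strain left out. Counts moved more. With no filter, higher and lower rows were 1 and 166 in CSR-1, 0 and 0 in JMC151 (where 0 of 39858 features were called), 178 lower in CSR-1b, 131 lower in WAGO-4 and 32 higher in WAGO-10. With a pseudocount of 0.1 RPM, 101 were lower in GR3035 and 3 higher in WAGO-10. The replicate block gave 2 higher rows in ALG-3 and 17 in WAGO-10. For GR3039 against GR3035, higher rows were 1 with the pseudocount of 0.1 and 0 with no filter. Lower rows were 0 under either, 4 with median-of-ratios scaling and 5 with the block. Of 24428 features, 729 were lower with that scaling and 1375 with the block, so a lower call was less common among tRNA rows there. For ALG-3 against ALG-4, 2 were lower with the pseudocount and 2 with the block. The block changed no other count by over 1.5 times; it changed the call of single rows as well, WBGene00022896 in ALG-3 against ALG-4 being no longer called. Same-numbered libraries had correlations of -0.02 to 0.41 over all features and -0.10 to 0.76 over tRNA rows, and 2 numbers are too few to show pairing.

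Leaving out 1 library gave 0 to 24 higher and 69 to 122 lower rows in CSR-1, 1 to 10 and 6 to 48 in JMC151, 0 to 2 higher in CSR-1b, 1 to 17 and 50 to 106 in JMC161, 9 to 27 higher in GR3039, 21 to 44 higher in GR3035, 0 to 32 higher in ALG-3, 1 to 2 higher in ALG-4, 26 to 51 lower in WAGO-4, and 3 to 16 and 43 to 91 in WAGO-10. For GR3039 against GR3035 it gave 0 to 24 higher and 0 to 17 lower, and for ALG-3 against ALG-4 0 to 21 and 0 to 20. Alternatives to the groups were chosen after seeing the data. Linking rows by 5 libraries left WBGene00014352 alone, with log2(RPM + 1) ratios of 1.65 in CSR-1, 0.57 in JMC161, 3.40 in GR3039 and 1.76 in ALG-4. With each library left out, a 15-row group with WBGene00014320 ran between -7.39 and 1.99 in CSR-1b, -1.35 and 4.67 in JMC161, -2.59 and 4.72 in GR3035, -6.05 and 0.78 in ALG-4 and -4.03 and 3.48 in WAGO-10, the highest being the values without 1 input. The 3-row group of WBGene00014538 ran between -1.16 and 0.30 in GR3039. The cause was not tested. Depth limits rows under 10 reads.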
